A study of Mus musculus with 26 samples.

Results

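The inhibitors of the cyclin-dependent kinases that hold cells in G1, together with the retinoblastoma gene and the core of the p53 axis, were followed through the 10 RNA-seq libraries of the series. The members were the 10 genes whose symbols in the table of FPKM (fragments scaled to transcript length and to library size) were *Cdkn2a*, *Cdkn2b*, *Cdkn2c*, *Cdkn2d*, *Cdkn1a*, *Cdkn1b*, *Rb1*, *Trp53*, *Mdm2* and *Ccng1*, out of 52454 symbols in all. The rule names the genes and uses no measured value, though earlier results of these data were known when it was written. The study examined the loci that need the de novo DNA methyltransferases DNMT3A and DNMT3B, and treated mouse embryonic fibroblasts (MEFs) with GSK126, an inhibitor of EZH2, the enzyme of Polycomb repressive complex 2 that places the repressive mark H3K27me3.

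Each condition was 1 library. Female 2i-MEFs of strain F1 (129X1/SvJ and MSM/Ms) came from *Dnmt3a* KO or *Dnmt3b* KO embryonic stem cells that had been edited by CRISPR, grown in 2i/L medium and injected into ICR blastocysts. These fibroblasts were taken from chimeric E14.5 embryos, selected with G418 for 7 days, sorted for GFP and sequenced at passage 1. Male MEFs at passage 1, labelled C57BL6, came from E14.5 embryos that were *Dnmt3a* WT or *Dnmt3a* KO from crosses of *Dnmt3a* heterozygous mice, and were given DMSO or 10 µM GSK126 for 2 days. Whole heart and liver came from 1 male *Dnmt3a* WT and 1 male *Dnmt3a* KO embryo at E14.5, also labelled C57BL6. There were thus 2 libraries of 2i-MEFs, 4 of MEFs and 4 of tissue, and no 2i-MEF library without a *Dnmt3* deletion was analysed here. No condition had a replicate, so no p-value was computed. A member was called different where log2(FPKM + 1) differed by at least 2-fold, and in comparisons between sets of libraries where every library of one set was at least 2-fold above every library of the other. Intervals after a ratio are 95% Clopper-Pearson intervals for counting error only, from the reads estimated on the shortest annotated transcript, and the reads carried no molecular identifiers.

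The Ink4 proteins, encoded by *Cdkn2a* to *Cdkn2d*, bind CDK4 and CDK6 and keep them from cyclin D. The Cip/Kip proteins p21 (*Cdkn1a*) and p27 (*Cdkn1b*) act mainly on CDK2 complexes, and both families thereby keep RB1, the product of *Rb1*, active as a brake on E2F factors. *Cdkn2a* also encodes ARF from an upstream first exon, which holds back MDM2, the ubiquitin ligase that degrades p53 (*Trp53*). *Cdkn1a*, *Mdm2* and *Ccng1*, the gene of cyclin G1, are direct p53 targets. In embryos the *Cdkn2a* and *Cdkn2b* locus is known as a Polycomb target that is silent in most tissues and is turned on as fibroblasts are cultured.

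*Cdkn2a* (ENSMUSG00000044303.6) lay at chr4:89274471-89294653 of mm10 on the minus strand, and *Cdkn2b* (ENSMUSG00000073802.4) lay beside it at chr4:89306289-89311032 on the same strand. The set of RefSeq (GRCm38.p6) start sites used here held 9 of the 10 members and had no entry for *Rb1*. The *Cdkn2a* starts of ARF and INK4A were 12.4 kb apart, and the *Cdkn2b* start lay 16.4 kb upstream of the ARF start. The stretches just before the 3 starts are shown because H3K27me3 domains are known to sit over CpG-rich starts, with each CpG in capitals, 5′ to 3′ on the minus strand and without annotated exon bases.
*Cdkn2a* INK4A start, chr4:89282193-89282442: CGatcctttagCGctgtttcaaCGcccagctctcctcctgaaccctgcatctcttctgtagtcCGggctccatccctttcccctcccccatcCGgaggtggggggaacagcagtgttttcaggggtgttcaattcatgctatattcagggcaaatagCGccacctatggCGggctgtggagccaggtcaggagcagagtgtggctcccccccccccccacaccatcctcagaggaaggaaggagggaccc
*Cdkn2a* ARF start, chr4:89294654-89294869: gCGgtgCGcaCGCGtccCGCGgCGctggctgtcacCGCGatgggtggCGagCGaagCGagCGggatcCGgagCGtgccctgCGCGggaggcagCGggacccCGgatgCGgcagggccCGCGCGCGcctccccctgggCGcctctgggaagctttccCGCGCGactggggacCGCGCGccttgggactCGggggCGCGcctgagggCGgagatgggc
*Cdkn2b* start, chr4:89311040-89311282: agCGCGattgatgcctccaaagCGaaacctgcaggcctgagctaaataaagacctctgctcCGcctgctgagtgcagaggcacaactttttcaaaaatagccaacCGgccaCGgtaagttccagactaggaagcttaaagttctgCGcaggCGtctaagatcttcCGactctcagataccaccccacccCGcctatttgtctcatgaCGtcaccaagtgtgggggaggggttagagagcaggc
The ARF stretch held 35 CpG in 216 bases, the *Cdkn2b* stretch 11 in 243 and the INK4A stretch 7 in 250. Over the full 250 bases before a start, ARF had 40 CpG, a number that 1.31% of 32851 RefSeq windows reached. The INK4A window had 7, which 46.3% of windows reached, and the *Cdkn2b* window had 12, which 33.5% reached.

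*Cdkn1a* lay at chr17:29090979-29100722 on the plus strand with a pair of RefSeq starts 2.8 kb apart, and all windows were searched for the p53 decamer, the unit that is paired in a p53 response element. The first stretch has its decamers in capitals and the other has its CpG in capitals.
*Cdkn1a* upstream start, chr17:29090729-29090975: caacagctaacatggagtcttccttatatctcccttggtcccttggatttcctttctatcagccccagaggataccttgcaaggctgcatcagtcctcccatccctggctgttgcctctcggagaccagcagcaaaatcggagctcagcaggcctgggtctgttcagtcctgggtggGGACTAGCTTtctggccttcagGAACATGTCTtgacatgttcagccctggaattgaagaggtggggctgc
*Cdkn1a* downstream start, chr17:29093519-29093768: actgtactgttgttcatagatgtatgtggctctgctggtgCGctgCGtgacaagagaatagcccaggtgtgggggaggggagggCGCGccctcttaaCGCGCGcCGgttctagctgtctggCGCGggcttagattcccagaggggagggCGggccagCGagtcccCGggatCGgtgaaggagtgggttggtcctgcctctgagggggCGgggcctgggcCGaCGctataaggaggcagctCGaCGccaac
The upstream stretch held 2 decamers and 2 CpG, and the downstream one held 19 CpG. Only exact matches to RRRCWWGYYY were marked, where R is A or G, W is A or T and Y is C or T. The 2 marked decamers do not adjoin and were not shown to be a pair. The bases tgacatgttc directly after the second marked decamer miss the pattern only at their first base and so stay in lower case. The pattern, which is its own reverse complement, was matched in 5 of the 12 windows of the members and in 7.13% of all windows. The windows were those of the upstream *Cdkn1a* start, *Mdm2*, *Ccng1*, *Trp53* and *Cdkn2d*. The letters GGGCGG, as in a binding site for SP1, stood on either strand in 6 of the 12 windows and in 32.7% of all windows. *Cdkn2c* (chr4:109660876-109667189) and *Cdkn1b* (chr6:134920401-134925513) had starts with up to 29 and with 28 CpG.

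Estimated depth was 9167201 to 26208496 reads, lowest in the 2i-MEFs. *Dnmt3a* stood at 4.21 FPKM in *Dnmt3a* KO 2i-MEFs against 23.9 in *Dnmt3b* KO 2i-MEFs, and at 12.7 in KO liver against 53.5 in WT liver. It went against the label in the heart (125 in the library labelled KO, 55.0 in that labelled WT) and in the MEFs (84.5 to 85.7 in those labelled KO, 19.3 to 26.1 in those labelled WT). A gene-level FPKM also counts exons outside a deleted part, so it does not settle the label. *Pax8*, a gene outside the members, was 4.24 and 6.92 FPKM in the MEFs labelled *Dnmt3a* KO and 0.236 and 0.101 in WT MEFs, 16.6 and 0.715 in *Dnmt3a* KO and *Dnmt3b* KO 2i-MEFs, and listed at 0 in both hearts. The MEF and heart libraries, WT ones included, are therefore named by their labels. The summed FPKM of 8 fibroblast markers was 7259 to 19560 in the cultured cells, 1703 and 1709 in heart and 404.9 and 674.5 in liver. The 6 cardiomyocyte markers summed to 22480 and 25360 in heart and 5 hepatocyte markers to 10800 and 17820 in liver. The 7 erythroid markers summed to 24270 and 35180 in heart and to 117000 and 159200 in liver, so red cell RNA was present in both tissues.

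*Cdkn2a*, whose FPKM adds INK4A and ARF transcripts that the table does not separate, was abundant in culture and near 0 in the embryonic heart and liver. It stood at 66.8 FPKM in *Dnmt3a* KO and 101 in *Dnmt3b* KO 2i-MEFs. In WT MEFs it was 124 with DMSO and 174 with GSK126, and in MEFs labelled *Dnmt3a* KO it was 99.5 and 192. All 6 fibroblast libraries lay far above the tissues, with the *Dnmt3a* KO 2i-MEFs lowest. In heart it was 0.0760 in WT and 0.373 in the library labelled KO, which came from 1 and 4 reads, and it was listed at 0 in both livers. With no read, a liver level up to 0.175 FPKM in WT or 0.179 in KO is allowed by the limit of 3 reads.

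*Cdkn2b*, the gene of INK4B, ran in parallel. Its FPKM was 45.4 and 74.3 in *Dnmt3a* KO and *Dnmt3b* KO 2i-MEFs. In WT MEFs it was 61.2 with DMSO and 94.5 with GSK126, and in MEFs labelled *Dnmt3a* KO it was 62.5 and 113. The tissues held 0.840 and 0.326 in the hearts labelled WT and KO and 0.128 and 0.228 in WT and KO liver, which were 4 to 19 reads. As for *Cdkn2a*, both GSK126 libraries were the highest and the groups of fibroblasts and tissues did not overlap.

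*Cdkn2c*, the gene of INK4C, did not follow its neighbours in the family. It was 25.6 and 13.0 FPKM in *Dnmt3a* KO and *Dnmt3b* KO 2i-MEFs, 14.8 to 20.7 in the 4 MEF libraries, 10.5 and 11.0 in heart and 20.9 and 21.6 in liver, so fibroblasts and tissues overlapped. *Cdkn2d* (chr9:21288410-21291407), the gene of INK4D, was highest in the embryonic heart and liver. It stood at 82.4 and 64.7 in WT and KO liver, 47.5 and 38.3 in the hearts labelled WT and KO, and 11.1 to 16.7 in the 6 fibroblast libraries, which were all below every tissue library.

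*Cdkn1a* had the highest FPKM of the 10 members in every fibroblast library. It was 164 and 201 in *Dnmt3a* KO and *Dnmt3b* KO 2i-MEFs, 426 with DMSO and 596 with GSK126 in WT MEFs, and 484 and 718 in MEFs labelled *Dnmt3a* KO. In heart it was 26.6 (WT) and 31.9 (labelled KO) and in liver 8.57 (WT) and 4.41 (KO). The levels fell into 4 ranges without overlap, in the order MEFs, 2i-MEFs, heart and liver. *Cdkn1b* had another order, with 32.2 and 31.9 in the 2i-MEFs, 7.99 to 15.5 in the MEFs, 7.19 and 7.97 in heart and 8.96 and 11.1 in liver. The 2i-MEFs were the highest, and MEFs and tissues overlapped.

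*Rb1* was low in fibroblasts and heart and higher in liver. It was 11.0 and 7.15 FPKM in *Dnmt3a* KO and *Dnmt3b* KO 2i-MEFs, 7.20 to 9.37 in the MEFs, 3.40 and 8.60 in the hearts labelled WT and KO, and 22.2 and 21.9 in WT and KO liver. *Rb1* (chr14:73183673-73325822) has a row for the whole gene and a row for a short transcript, which were added. It overlaps *Rcbtb2* on the other strand, whose FPKM reached 52.7, and whether strand was used in counting is not given in the sources used here.

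*Trp53* (chr11:69580359-69591873) varied little among fibroblasts. It was 72.6 and 75.3 FPKM in *Dnmt3a* KO and *Dnmt3b* KO 2i-MEFs, 58.8 to 68.7 in MEFs, 44.5 and 43.8 in the hearts labelled WT and KO and 100.0 and 91.9 in WT and KO liver, where it was the highest of the 10 members. *Mdm2* (chr10:117688875-117710758) was 43.2 and 50.1 in the 2i-MEFs. It was 80.5 and 109.7 in WT MEFs with DMSO and GSK126, 139 and 151 in MEFs labelled *Dnmt3a* KO, and 18.2 to 23.1 in the tissues. Each MEF library was above each 2i-MEF library, and these above each tissue library.

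*Ccng1* (chr11:40748552-40755311) had the same 4-step order as *Cdkn1a*. It was 82.9 and 116 FPKM in *Dnmt3a* KO and *Dnmt3b* KO 2i-MEFs, 181 and 218 in WT MEFs with DMSO and GSK126, 167 and 276 in MEFs labelled *Dnmt3a* KO, 55.6 and 55.9 in heart, and 16.3 and 17.1 in liver. It was the highest member in both hearts.

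**Figure D1:**
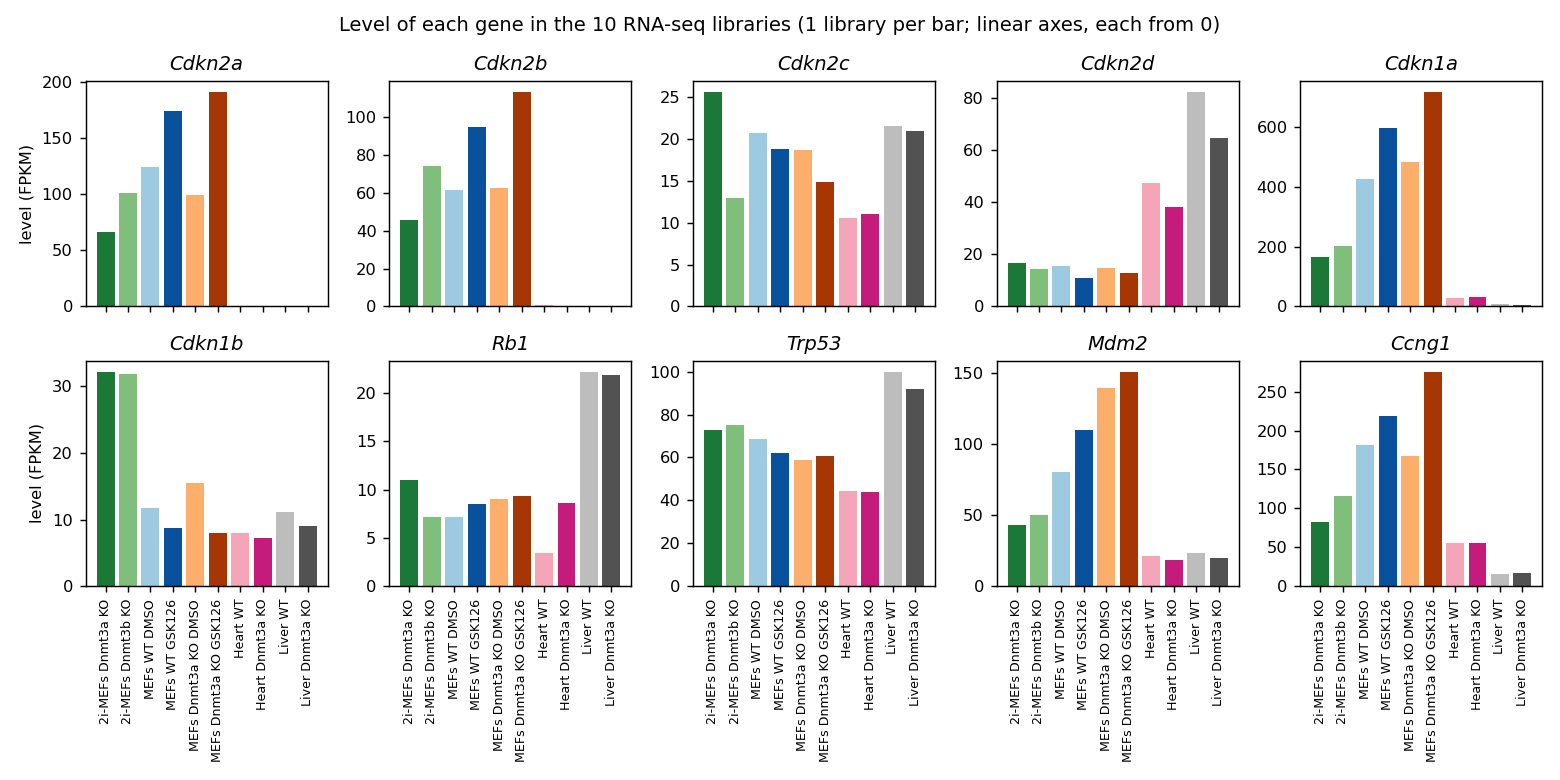
FPKM of each member on its own linear axis from 0, with 1 bar for each of the 10 libraries and no error bars, since no condition had a replicate. *Cdkn2a* and *Cdkn2b* sit between 45.4 and 192 FPKM in the fibroblasts and below 1 FPKM in the tissues, whereas *Trp53* lies between 43.8 and 100.0 in all libraries.

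Set against the embryonic tissues, the cultured fibroblasts carried more of 3 members and less of 1. *Cdkn2a*, *Cdkn2b* and *Cdkn1a* were at least 2-fold higher in each of the 6 fibroblast libraries than in each of the 4 tissue libraries, a call that 5.10% of the 14181 genes tested met. *Cdkn2d* was at least 2-fold lower, a call that 3.01% of genes met. The lowest fibroblast level of *Cdkn2a* was at least 373-fold higher than the liver level that 3 reads per library allow, and 179-fold above the higher heart value, which rests on 4 reads. Against the 1 read of WT heart, the ratio for *Dnmt3a* KO 2i-MEFs was 879 [148 to 32700]. For *Cdkn2b* the lowest fibroblast library was 54.1-fold above the highest tissue library. The mean level was 24.1-fold higher for *Cdkn1a*, and for *Cdkn2d* the ratio was 0.246. *Mdm2* and *Ccng1* had mean ratios of 4.67 and 4.79 but were not called, since some pairs of libraries were closer than 2-fold. At 1.5-fold *Mdm2* joined the 4 called members, a call in either direction that 15.3% of genes met. In whole tissue, fewer cells of a type and less RNA per cell cannot be told apart, and culture, age in culture and cell type differed together.

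Among 25 other p53 target genes, 22 had a higher mean in fibroblasts (50.4% of all genes) and 9 were called higher, with a median log2 ratio of 2.01 against 0.0104 for all genes tested. The epoxide hydrolase gene *Ephx1* had a mean of 236 FPKM in fibroblasts and 6.09 in tissues, and *Phlda3*, whose product restrains AKT, 263 and 30.6. All 12 proliferation genes had a lower mean in fibroblasts, 9 of them called, with a median of -2.63. *Ccna2*, the gene of cyclin A2, had a mean of 17.5 FPKM in fibroblasts and 174 in tissues. The G1 cyclin and CDK genes gave a median of -0.65 over 8 genes, with 1 called lower, and the 8 E2F genes gave -0.98, with 1 called lower. Of 12 known regulators of the Ink4 locus, 7 were higher in fibroblasts and 5 lower. The 1 called was *Twist1*, with a mean of 48.5 FPKM in fibroblasts and 4.99 in tissues. *Bmi1* had means of 24.6 and 12.5 and *Ezh2* of 18.1 and 68.6, and neither passed in every pair. The fibroblast marker sums above moved with these members, and their part in the result was not tested.

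Within 500 kb of *Cdkn2a* and *Cdkn2b*, 36 other rows were annotated and 4 of them reached 1 FPKM in any library. *Mtap*, the methylthioadenosine phosphorylase gene near the locus, was 23.7 to 33.2 FPKM in all 10 libraries, with 26.9 to 33.2 in fibroblasts and 23.7 to 27.9 in tissues. The fibroblast and tissue ranges thus overlapped at *Mtap*. *Gm12602* reached 4.20, *Dmrta1* 1.63 and *Gm26490* 10.1, the last in 1 library only.

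**Figure D2:**
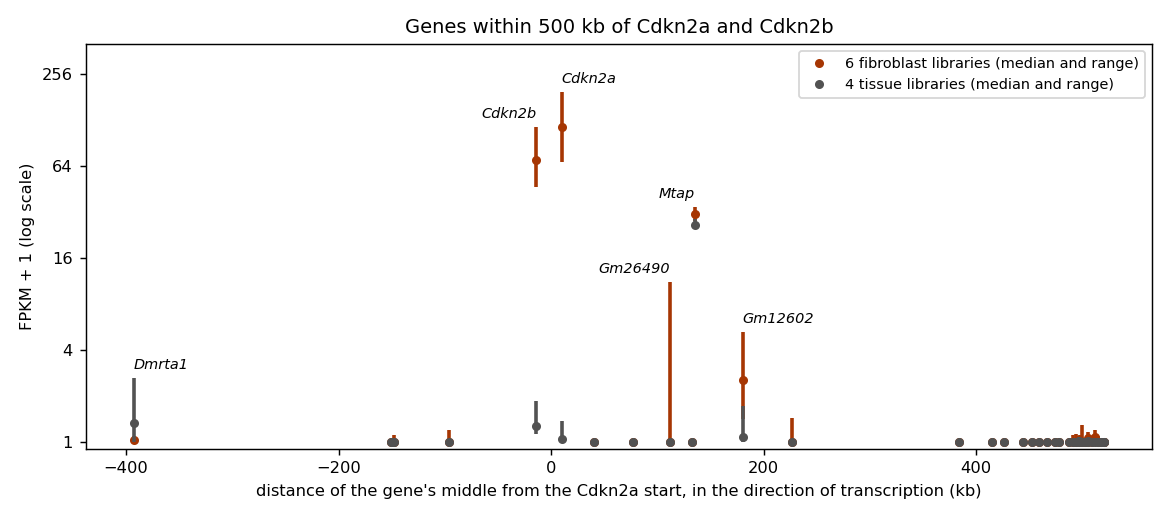
FPKM + 1 on a log scale of the genes within 500 kb, against distance from the *Cdkn2a* start along its direction of transcription, as median and range over the 6 fibroblast and the 4 tissue libraries. The fibroblast and tissue ranges are far apart at *Cdkn2a* and *Cdkn2b* and meet at *Mtap*.

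By Pearson correlation of log2(FPKM + 1) over the 10 libraries, the gene most like *Cdkn2a* among 10441 was *Cdkn2b* (0.997), ahead of *Lamp1* (0.994) and *Mvp*, *Eda2r* and *Grem1* (each 0.993). The genes most like *Cdkn2b* were *Cdkn2a* (0.997), *Grem1* (0.995), *Eda2r* (0.994), *Uap1l1* (0.993) and *Vgll3* (0.992). *Cdkn1a* was most like *Zmat3* and *Serpinb6a* (0.995 each), *Nrp2* and *Hs6st2* (0.992 each) and *Igfbp6* (0.991). All these values share the gap between fibroblasts and tissues.

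The GSK126 comparison asked how the Polycomb-regulated locus responds when EZH2 is inhibited. *Cdkn2a* and *Cdkn2b* were higher with GSK126 in both MEF genotypes, but no member reached 2-fold in either. In WT MEFs 0 of 10 members were called against 3.00% of 13020 genes tested, and in MEFs labelled *Dnmt3a* KO 0 of 10 against 4.54% of 13163. The ratio of FPKM for *Cdkn2a* was 1.40 [1.31 to 1.5] in WT MEFs and 1.93 [1.81 to 2.05] in MEFs labelled *Dnmt3a* KO. On the log2(FPKM + 1) scale these were differences of 0.48 and 0.94, which 7.68% and 1.95% of genes equalled or exceeded. *Cdkn2b* had ratios of 1.54 [1.44 to 1.65] and 1.81 [1.71 to 1.92], with log2 differences of 0.62 and 0.85 that 4.98% and 2.50% of genes reached. *Cdkn2c* had ratios of 0.911 [0.781 to 1.06] and 0.795 [0.680 to 0.923], and *Cdkn2d* 0.710 [0.549 to 0.926] and 0.869 [0.692 to 1.09]. The intervals of *Cdkn2a* and *Cdkn2b* thus lay above 1 in both genotypes and those of the other Ink4 genes did not.

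Among the Cip/Kip genes, *Cdkn1a* had ratios of 1.40 [1.35 to 1.45] in WT MEFs and 1.48 [1.44 to 1.52] in MEFs labelled *Dnmt3a* KO. *Cdkn1b* went the other way, with 0.753 [0.638 to 0.888] and 0.516 [0.445 to 0.597]. *Rb1* had 1.18 [0.572 to 2.40] and 1.05 [0.586 to 1.85] from reads on its shortest transcript, and the intervals narrowed to 1.05 to 1.31 and 0.953 to 1.14 with reads on its longest. In the p53 axis, *Trp53* had 0.905 [0.754 to 1.08] and 1.03 [0.873 to 1.22]. Its target *Mdm2* had 1.36 [1.20 to 1.55] and 1.09 [0.990 to 1.19], and *Ccng1* had 1.21 [1.14 to 1.28] and 1.65 [1.57 to 1.74]. At a 1.5-fold threshold *Cdkn2b* alone was higher in WT MEFs, where 5.48% of genes were that much higher and 4.60% that much lower. In MEFs labelled *Dnmt3a* KO *Cdkn2a*, *Cdkn2b* and *Ccng1* were higher and *Cdkn1b* lower, against 5.45% of genes higher and 9.56% lower.

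The GSK126 comparisons of the 2 MEF genotypes share no library. The sign was the same in both for 9 of the 10 members (6 higher and 3 lower, 90.0%), and for 7028 of 12562 genes tested in both (55.9%). *Trp53* was the exception as deposited, and it too was lower in both with each library scaled to a common sum. With the highest row for each symbol, *Rb1* had opposite signs. The log2 difference with GSK126 in MEFs labelled *Dnmt3a* KO less that in WT MEFs was 0.46 for *Cdkn2a*, 0.45 for *Ccng1*, -0.33 for *Mdm2* and -0.50 for *Cdkn1b*, and with 1 library each these were not tested. Paired within the genotype label, no member was 2-fold in the same direction in both pairs, against 0.708% of genes. *Cdkn2b* alone was 1.5-fold higher in both, with a mean log2 difference of 0.73, and 2.67% of genes passed 1.5-fold in one direction in both pairs.

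**Figure D3:**
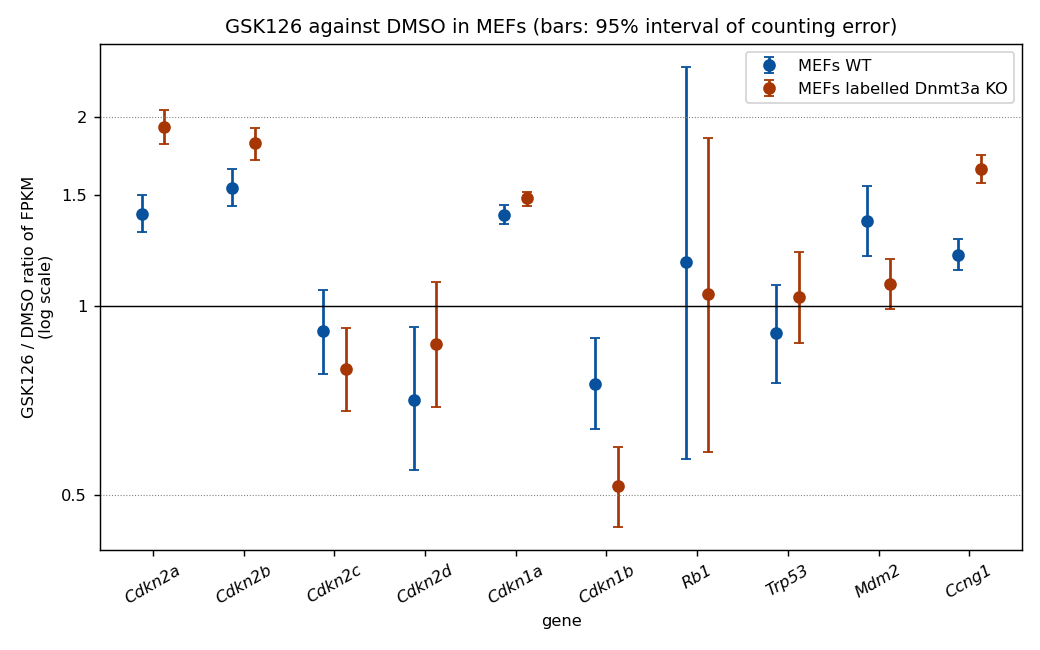
FPKM ratio of GSK126 to DMSO on a log scale for each member in WT MEFs and in MEFs labelled *Dnmt3a* KO, with bars for the 95% counting interval. The whole intervals of *Cdkn2a*, *Cdkn2b*, *Cdkn1a* and *Ccng1* lie above 1 in both genotypes, and that of *Cdkn1b* lies below 1 in both.

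The other p53 targets leaned upward with GSK126. Of 25, 20 were higher in WT MEFs (median log2 0.24) and 22 in MEFs labelled *Dnmt3a* KO (median 0.26), where 50.2% and 45.4% of all genes were higher, with medians of 0.00166 and -0.0394, and 18 were higher in both genotypes. In each genotype 1 passed 2-fold, *Pmaip1*, the gene of the BH3-only protein NOXA, from 9.71 to 21.4 FPKM in WT MEFs, and the junction protein gene *Perp* from 25.1 to 63.9 in MEFs labelled *Dnmt3a* KO. The 12 proliferation genes were lower in both genotypes without exception, with medians of -0.62 and -0.66, and their summed FPKM went from 385 to 255.4 and from 329.1 to 212. *Ccnb1*, the gene of cyclin B1, passed the call in both, from 12.6 to 5.67 and from 11.9 to 4.50. *Ccnd1*, the cyclin D1 gene, went from 161 to 238 and from 170.0 to 311 FPKM, short of 2-fold. *Ezh2* itself went from 18.8 to 11.3 in WT MEFs and from 17.3 to 18.7 in MEFs labelled *Dnmt3a* KO.

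Of the other p53 regulators, 1 was called with GSK126, the checkpoint kinase gene *Chek1*, which fell in MEFs labelled *Dnmt3a* KO from 2.90 to 0.884 FPKM and was 5.01 and 2.07 in WT MEFs. None of the 8 G1 cyclin and CDK genes, 8 E2F genes and 11 to 12 tested regulators of the Ink4 locus was called in either genotype. The summed fibroblast markers went with GSK126 from 13350 to 10380 in WT MEFs and from 10470 to 7259 in MEFs labelled *Dnmt3a* KO. The 5 macrophage markers summed to 1110 and 1144 in WT MEFs and to 985.4 and 835.1 in MEFs labelled *Dnmt3a* KO, so macrophage RNA was measured with and without the inhibitor. The 5 keratinocyte markers summed to 6.13 and 8.40, and to 17.5 and 37.5. Their part in the result was not tested.

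**Figure D4:**
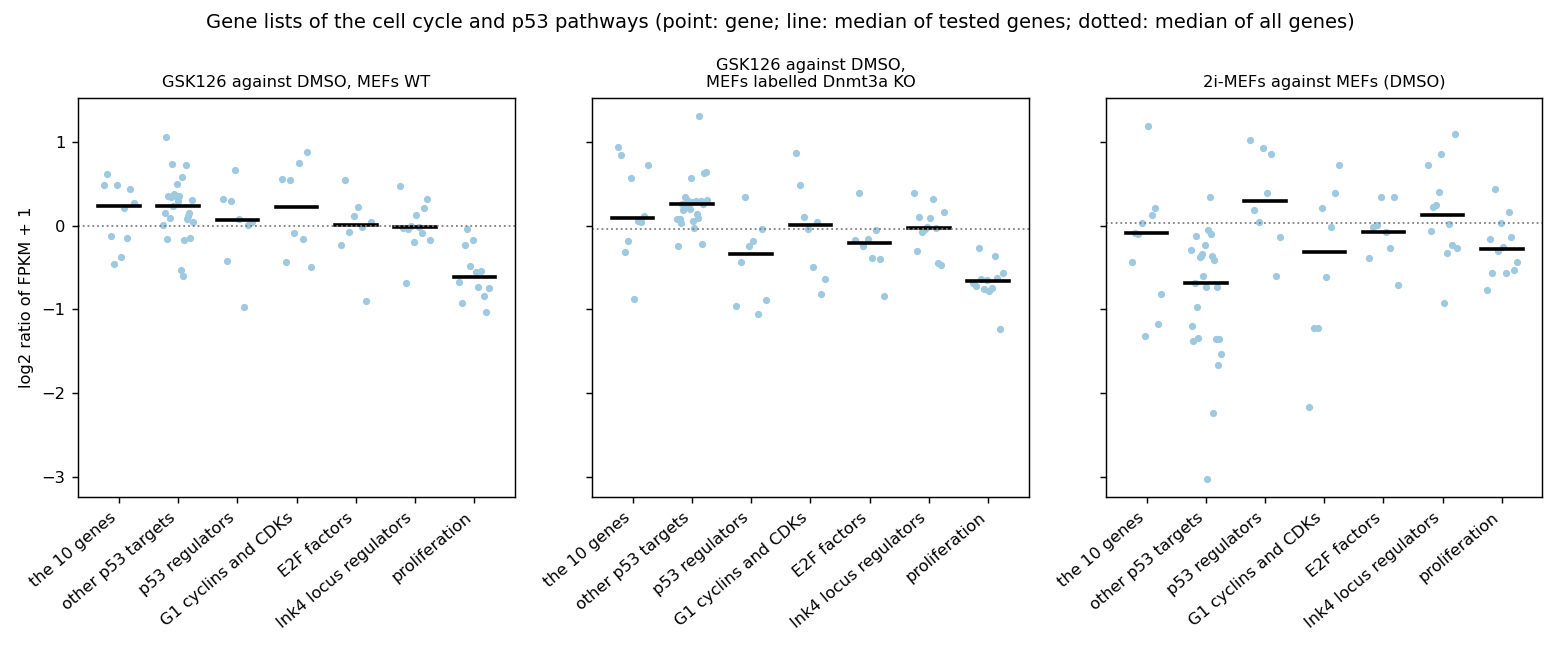
Differences in log2(FPKM + 1) of single genes (points) by list, for GSK126 against DMSO in each MEF genotype and for 2i-MEFs against MEFs given DMSO. Bars mark the median of the tested genes of a list and the dotted line the median of all genes. The proliferation list is negative with GSK126 in both MEF genotypes (-0.62 and -0.66), and the other p53 targets are positive (0.24 and 0.26).

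Compared with MEFs given DMSO, the 2i-MEFs had lower *Cdkn1a*, and its ratio of means was 0.400. Each of the 4 pairs of libraries lay between 0.338 and 0.471. This was the 1 member called of 10, where 3.63% of 13335 genes were called lower and 2.45% higher. *Cdkn1b* had a ratio of 2.36 (pairs 2.06 to 2.76) and narrowly missed, since its closest pair differed by 0.998 on the log2(FPKM + 1) scale, against 1 for 2-fold. *Mdm2* had 0.425 (pairs 0.311 to 0.622), *Ccng1* 0.571 (pairs 0.459 to 0.693), and *Trp53* was 1.16 (pairs 1.06 to 1.28). The groups did not overlap for *Cdkn1a*, *Mdm2* and *Ccng1* (lower in 2i-MEFs) and for *Cdkn1b* and *Trp53* (higher), but with so few libraries 26.5% of genes were lower and 30.8% higher without overlap, so 3 and 2 of the 10 members are near that background. The Ink4 genes did not separate the groups, with *Cdkn2a* at 0.750 (pairs 0.537 to 1.02) and *Cdkn2b* at 0.967 (pairs 0.727 to 1.21). At 1.5-fold *Cdkn1a*, *Cdkn1b* and *Mdm2* were called, as were 12.5% of genes. Without the MEF library labelled *Dnmt3a* KO, *Cdkn1b* was called as well, which made 2 members at 2-fold.

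Of the 25 other p53 targets, 24 had a lower mean in 2i-MEFs, as 47.4% of all genes did, with a median log2 ratio of -0.68 against 0.0313 for all genes. The call was passed by 5, all lower in 2i-MEFs. The antiproliferative gene *Btg2* was 20.3 and 28.3 FPKM in 2i-MEFs and 156 and 265 in MEFs given DMSO. *Phlda3* was 114 and 118 against 282 and 310. *Perp* was 3.55 and 4.36 against 19.8 and 25.1. *Gtse1*, a G2 and S phase gene, was 8.09 and 7.83 against 23.5 and 26.1, and *Ddit4l* was 14.0 and 7.09 against 34.9 and 32.9. The p53 regulators gave no call, and *Mdm4*, the partner of MDM2, had a mean of 16.1 in 2i-MEFs and 7.76 in MEFs. No proliferation gene was called, with a median of -0.28. The largest gap in the cell-cycle lists was *Cdkn1c*, the gene of the third Cip/Kip protein p57, at 0.196 and 2.18 FPKM in 2i-MEFs and 574 and 440.0 in MEFs given DMSO.

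**Figure D5:**
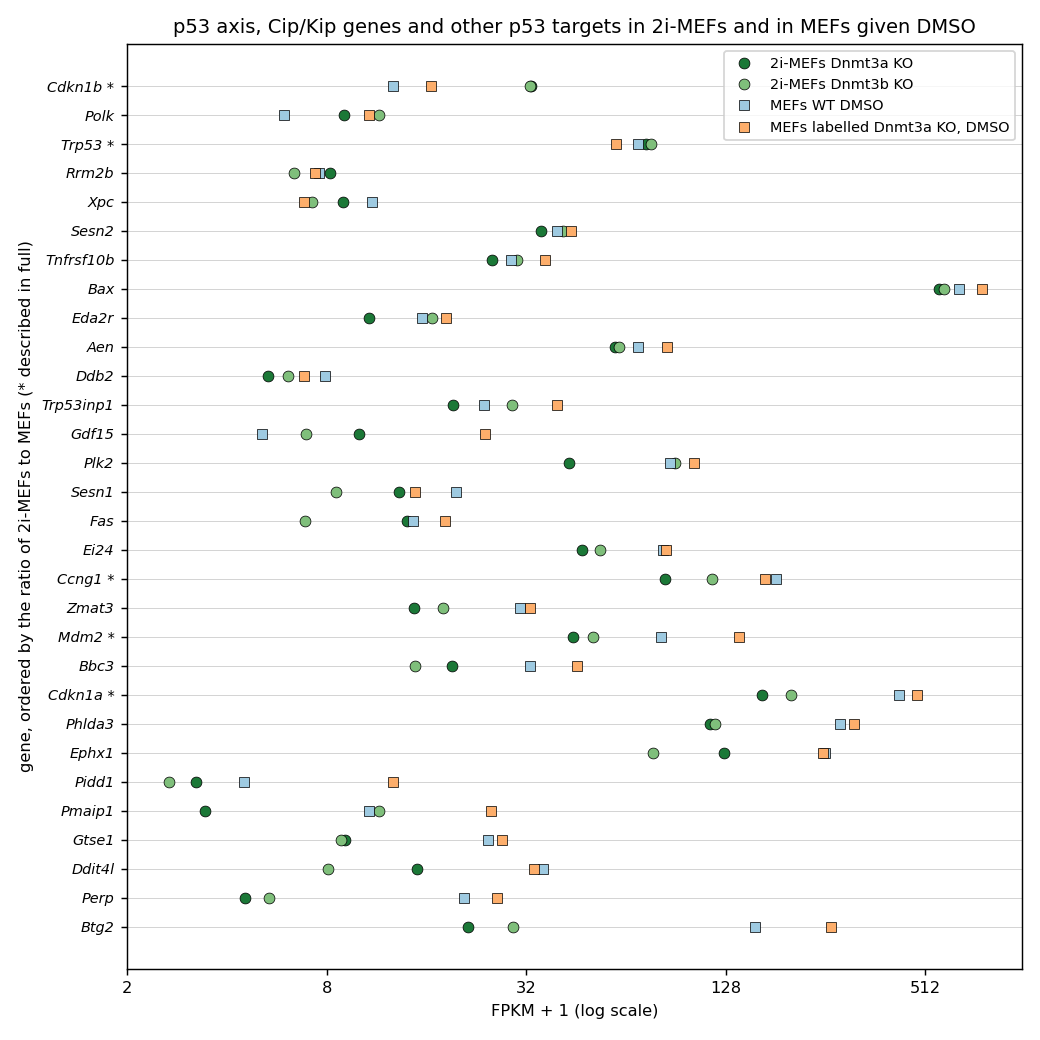
FPKM + 1 on a log scale in both 2i-MEF libraries (circles) and both libraries of MEFs given DMSO (squares), for *Cdkn1b*, *Trp53*, *Cdkn1a*, *Mdm2*, *Ccng1* and the other p53 targets, ordered by the ratio of 2i-MEFs to MEFs. The circles lie left of the squares for *Cdkn1a*, *Mdm2* and *Ccng1*, and the gap is widest for *Btg2*, at 20.3 and 28.3 FPKM against 156 and 265.

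The groups differed at once in strain, sex, *Dnmt3* genotype, origin from embryonic stem cells, drug selection and sorting. Only the MEFs were labelled as given DMSO. The parts of these differences cannot be told apart. The 5 macrophage markers also moved with the groups. All 5 were called lower in 2i-MEFs, with sums of 19.5 and 13.9 FPKM against 1110 and 985.4 in MEFs given DMSO. *Cd68* was 2.67 and 2.09 against 185 and 133, *Adgre1* was 0.0939 and 0 against 36.3 and 22.0, and *Ptprc* was at most 0.0247 against 2.60 and 2.97. The fibroblast marker sums were 19560 and 18870 in 2i-MEFs and 13350 and 10470 in MEFs. Their part in the lower p53 target levels was not tested.

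Between the 2i-MEFs themselves, none of 10 members reached 2-fold, where 7.92% of 13002 genes did. *Cdkn2c* came nearest, with *Dnmt3a* KO over *Dnmt3b* KO at 1.98 [1.57 to 2.50]. *Cdkn2a* was at 0.659 [0.583 to 0.744] and *Cdkn2b* at 0.612 [0.549 to 0.681], so the linked genes were lower together in *Dnmt3a* KO 2i-MEFs. At 1.5-fold these 3 were called, against 19.5% of genes. *Cdkn1a* had 0.814 [0.753 to 0.879], *Ccng1* 0.716 [0.638 to 0.804], and *Cdkn1b* 1.01 [0.889 to 1.14]. Of the other p53 targets, 1 was called higher (*Fas*, 13.0 against 5.88 FPKM) and 2 lower (*Pmaip1*, 2.43 against 10.5, and *Plk2*, 42.0 against 89.1). With 1 library for each genotype, a difference between genotypes and one between lines cannot be told apart.

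Between MEFs by genotype label, no member reached 2-fold. With DMSO 0 of 10 were called against 5.63% of 13147 genes, and with GSK126 0 of 10 against 5.07% of 13089. *Mdm2* was the most different, at 1.73 [1.54 to 1.95] times the WT level with DMSO and 1.38 [1.24 to 1.53] with GSK126, and at 1.5-fold it was the single member called with DMSO, against 16.9% of genes. *Cdkn2a* was 0.800 [0.745 to 0.859] with DMSO and 1.10 [1.04 to 1.16] with GSK126, so its direction differed between treatments. *Cdkn1b* was 1.33 [1.16 to 1.52] with DMSO and 0.910 [0.763 to 1.08] with GSK126. Of the 25 other p53 targets, 19 were higher under the KO label with DMSO (median log2 0.235) and 24 with GSK126 (median 0.295), where 7084 of 13147 and 6678 of 13089 genes were higher, with medians of 0.0352 and 0.00624. With DMSO 3 were higher by at least 2-fold, *Gdf15* (4.10 to 23.0 FPKM), *Pidd1* (3.50 to 11.7) and *Pmaip1* (9.71 to 24.1), against 3.82% of all genes. With GSK126 2 were, *Gdf15* (4.38 to 28.4) and *Pidd1* (3.88 to 9.91), against 2.51%. These genotype comparisons use the same 4 libraries as the GSK126 comparisons. With the label paired across treatments, no member passed 2-fold or 1.5-fold in both pairs, against 1.67% and 5.10% of 12669 genes. Markers of cell types moved with the label. The 5 macrophage markers were all lower under the KO label, with a median log2 difference of -0.47 with DMSO and -0.58 with GSK126 and sums of 985.4 against 1110 and 835.1 against 1144. Of the 8 fibroblast markers 7 were lower in each treatment, with sums of 10470 against 13350 and 7259 against 10380. The 3 keratinocyte markers tested were higher in both treatments, with sums over all 5 of 17.5 against 6.13 and 37.5 against 8.40. Their part in the result was not tested.

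In heart 8 of the 10 members passed the filter of a mean of 1 FPKM, and *Cdkn2a* and *Cdkn2b* did not. *Rb1* was called higher in the library labelled *Dnmt3a* KO, at 2.53 [1.07 to 6.99] times WT, against 3.12% of 13282 genes. This call rests on between 8 and 287 reads in WT heart and between 17 and 591 in the heart labelled KO, depending on the transcript counted, and on the longest one the interval was 2.19 to 2.92. *Cdkn1a* was at 1.20 [1.03 to 1.39] and *Cdkn2d* at 0.805 [0.691 to 0.935]. Of the other p53 targets tested, 13 of 22 were lower in the heart labelled KO (median -0.05), as 49.5% of all genes were. From WT heart to the heart labelled KO the hepatocyte marker sum went from 32.8 to 7.20 FPKM, with 4 of 4 tested genes called lower, and the erythroid sum from 35180 to 24270, with 7 of 7 lower and 1 called. The cardiomyocyte sum was 25360 and 22480, the fibroblast sum 1703 and 1709, and the part of these markers in the result was not tested.

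In liver 8 members were tested and 0 were called, against 3.21% of 12816 genes. *Cdkn1a* was lowest relative to WT, at 0.515 [0.390 to 0.676], and was the 1 member called at 1.5-fold, against 9.79% of genes. *Cdkn2d* was at 0.785 [0.716 to 0.861], and *Trp53* at 0.918 [0.810 to 1.04]. In the liver labelled KO, 17 of 20 tested p53 targets were lower (median -0.23), in a comparison where 61.6% of all genes were lower (median -0.08). From WT to KO liver the hepatocyte marker sum went from 17820 to 10800 FPKM and the erythroid sum from 117000 to 159200. The skeletal muscle sum went from 30.4 to 1.87, with 4 of 4 tested genes called lower, and the cardiomyocyte sum from 69.4 to 16.1, with 3 of 4 called lower. The fibroblast sum went from 674.5 to 404.9 (7 of 7 lower, 1 called) and the macrophage sum from 145.0 to 101.4 (5 of 5 lower, 0 called). Their part was not tested.

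Heart and liver differed in 4 of the 8 members tested, in both directions. *Cdkn1a* and *Ccng1* were at least 2-fold higher in both hearts than in both livers, with ratios of means of 4.51 and 3.35, a call that 17.1% of 13714 genes met. *Rb1* and *Trp53* were at least 2-fold lower in heart, with ratios of 0.272 and 0.460, a call that 15.2% of genes met. Within the embryo labelled WT and that labelled KO the log2 differences were 1.53 and 2.60 for *Cdkn1a*, 1.71 and 1.65 for *Ccng1*, -2.40 and -1.25 for *Rb1* and -1.15 and -1.05 for *Trp53*. At 1.5-fold *Cdkn2c* was lower in heart as well, and 48.9% of genes met that call in either direction. *Mdm2* did not separate the tissues, with 0.918. The p53 targets *Cdkn1a* and *Ccng1*, but not *Mdm2*, were thus higher in the tissue with the lower *Trp53* RNA level, and p53 protein was not measured. Of 22 other p53 targets tested, 3 were called higher and 3 lower in heart, with *Phlda3* at 57.0 and 54.8 FPKM in heart and 6.86 and 3.93 in liver. *Btg2* went the other way, at 13.3 in both hearts and 44.5 and 43.5 in the livers. Of the 12 proliferation genes, 11 were lower in heart by the call, with a median of -1.61. The tissues differed in blood as well, as the erythroid sums above show, and the part of cell makeup was not tested.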

How the data were processed

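Sequencing reads were 75-base single reads of stranded mRNA libraries. The authors trimmed them, mapped them to the mm10 genome and GENCODE M15 genes by Bowtie2 2.3.2 within tophat 2.1.1, kept reads of mapping quality 20 or more and computed the deposited FPKM values with cufflinks 2.2.1, as the study's methods state. The submitters' processing notes list other versions of the mapping tools, TopHat2 2.1.0 and Bowtie2 2.2.5, and the same Cufflinks 2.2.1. The table held 52609 rows, and rows with the same symbol were summed, giving 52454 symbols. FPKM values depend on the transcripts cufflinks chose, and reads shared by overlapping genes can be split among them. The members and gene lists were chosen with earlier results of these data known.

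Each of 10 comparisons used log2(FPKM + 1), which understates the change of low genes, over genes whose mean of both sides was at least 1 FPKM. In the comparisons of 1 library with 1, a call needed a 2-fold difference. In those between sets of libraries every pair had to differ that much. Depth was recovered from the steps between low FPKM values of genes with 1 transcript, where 97.9% to 99.0% of values were whole reads within a tolerance of 0.1 read, and it gave the reads behind each value. The ratio and depth steps were tested on simulated data. Genes named beside the members were the 2 highest and 2 lowest of a list in a comparison, those within 500 kb of *Cdkn2a* and *Cdkn2b*, the 5 most like a member, label and marker genes and genes a result turned on, the last picked after their values were seen. Promoter windows were the 250 bases before each RefSeq start of the set used, and all 12 windows of the members equalled the genome sequence. Python 3.11.15, numpy 2.4.6, pandas 2.3.3, scipy 1.17.1 and matplotlib 3.10.9 were used. The 16 DNA methylation samples were not analysed here.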

Additional observations from a re-analysis of the deposited data

Results flagged for a closer look

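The difference of *Cdkn1a* between the embryo labelled *Dnmt3a* KO and the WT embryo had opposite signs in the 2 tissues. On the log2(FPKM + 1) scale it was 0.25 in heart and -0.82 in liver, which is 1.07 apart, and the counting intervals of both ratios excluded equality on opposite sides. With 1 library for each tissue and label, the difference between tissues was not tested. *Rb1* differed by more, with 1.12 in heart and -0.02 in liver, 1.15 apart and also of opposite sign, but its liver counting interval included equality, and this difference was not tested either. Both rest on the labels of the hearts, against which *Dnmt3a* went (125 FPKM in the heart labelled KO, 55.0 in that labelled WT). With the heart labels exchanged, a choice made after seeing the data, *Cdkn1a* was -0.25 in heart and -0.82 in liver, 0.57 apart, and *Rb1* -1.12 and -0.02, -1.10 apart, so neither had opposite signs.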

How the results depend on the processing

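At a 1.5-fold threshold, 1 member was called for GSK126 in WT MEFs, 4 for GSK126 in MEFs labelled *Dnmt3a* KO, 1 for the genotype label in MEFs given DMSO, 1 in liver, 3 between the 2i-MEFs and 3 between 2i-MEFs and MEFs. Heart against liver and fibroblasts against tissues went from 4 to 5 each, with *Cdkn2c* and *Mdm2* gained, and the label comparisons in heart and in MEFs given GSK126 kept 1 and 0. With a pseudocount of 0.1 FPKM, 2 members, *Cdkn1a* and *Cdkn1b*, were called between 2i-MEFs and MEFs. Without the MEF and heart libraries labelled *Dnmt3a* KO, a choice made after seeing the data, these 2 were called as well, while heart against liver and fibroblasts against tissues kept 4 calls each. Of the 100 log2 ratios of members, 6 moved with the smaller pseudocount, 3 with centring on the median gene, 6 with scaling of each library to 1 common sum, which was chosen after seeing the data, and 0 with the highest row for each symbol. These counts do not take in every change of sign, and those changes are counted below. No called member changed direction. Among members not called, the sign of the log2 ratio turned for 6 of 100 with centring, each of at most 0.0418 in size, for 4 with scaling to a common sum, each of at most 0.35, for 1 with the highest row and for 0 with the smaller pseudocount. The median of all genes shifted by over 0.1 only between heart and liver (-0.11). Heart and liver came from the same embryos, and with this pairing within embryos, chosen after seeing the data, 4 members were called as before, the same genes. With GSK126 paired within the genotype label, or the label paired across treatments, also chosen after seeing the data, 0 members were called in both pairs, as in each pair alone. The label comparisons in heart and in liver also share these embryos, and they were not called as pairs across the tissues. No paired analysis was possible for the remaining comparisons because the labels give them no shared number, animal or culture. Members under 20 reads, *Cdkn2a* and *Cdkn2b* in the tissues, and *Rb1* are limited by depth.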
